A study of Mus musculus with 12 samples.

Results

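The Zbtb, Zscan and Zkscan genes encode transcription factors with a row of C2H2 zinc fingers that reads DNA and a protein-binding domain at the other end. Members were the genes whose symbol is Zbtb, Zscan or Zkscan followed by a number and at most 1 letter, with at least 10 reads summed over the 6 RNA libraries. That gave 59 of 44345 genes in the count files, 38 of the POZ type (Zbtb) and 21 of the SCAN type (10 Zscan and 11 Zkscan). RNA came from L4 to L6 dorsal root ganglia, which hold sensory neurons, satellite glia, Schwann cells, vessels and immune cells. All mice were C57BL/6, 6 to 8 weeks old, and in all of them the dorsal columns of the spinal cord, which carry the central axons of these neurons, had been cut 24 h earlier. The groups were 3 libraries from mice given 12 mg/kg MS275, also called entinostat, which blocks histone deacetylases of class I, and 3 from mice given its vehicle; both were injected intraperitoneally at the time of injury, with a second dose 2 h before sacrifice. Each RNA library pooled whole ganglia of 2 mice. Drug and vehicle were compared in injured animals only.

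The POZ domain (also called BTB) joins proteins into dimers and offers a groove that binds the co-repressors such as BCOR, which bring histone deacetylases to DNA. The SCAN domain also joins proteins but recruits no deacetylase by itself. Zkscan proteins are named for a KRAB domain in addition, a domain that in many other zinc finger proteins binds Trim28 and through it the histone methyltransferase Setdb1. Whether the KRAB domains of these members bind Trim28 was not examined here. Many members of both families are repressors, and POZ proteins often act through the class of enzymes that MS275 inhibits. In sensory ganglia Zbtb20 is known for its part in pain signalling, and most other members have no described role there.

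Reads assigned to genes numbered 34992533 to 60370523 per library. The defining neuronal markers were present in every library: the summed level of 12 sensory neuron genes was 22671 to 23739 CPM (read counts scaled to library size) in vehicle against 23786 to 26514 CPM with MS275. Of these 12 genes 1 rose (Elavl4) and 0 fell (0 also at an unadjusted p under 0.05, in DESeq2 and in limma voom), and 9 did not overlap between the groups, all higher with MS275. The 9 were 75% of these markers, where 33.8% of all tested genes did not overlap and 17.9% were lower without overlap. Over all tested genes 5.1% rose and 5.89% fell. The MS275 libraries stood apart from one another, and replicate 1 most of all. Skeletal muscle transcripts (9 of 10 rose) summed to 7.67 to 55.5 CPM in vehicle against to 614, 83.4 and 94.3 CPM in MS275 replicates 1, 2 and 3. Neutrophil transcripts (1 of 10 rose) summed to 42.6 to 71.9 CPM in vehicle against 277.8, 48.9 and 79.0 CPM with MS275, erythroid transcripts (0 of 4 rose or fell) to 54.5 to 66.0 and 32.8 to 154.4 CPM, and adipocyte transcripts (1 of 4 rose) to 3.46 to 4.64 and 4.91 to 15.3 CPM. Endothelial markers (4 of 8 rose) summed to 109.4 to 120.5 CPM in vehicle against 136.1 to 154.0 CPM with MS275, and satellite glial markers (1 of 8 rose, 2 fell) to 3492 to 3676 and 3549 to 3953 CPM. Of 8 macrophage, 8 myelinating Schwann cell, 5 lymphocyte and 4 dendritic cell markers tested, 0 passed in edgeR, DESeq2 or limma voom, and at an unadjusted p under 0.05 stood 1 dendritic cell marker and 0 of the others, erythroid markers included. Of the listed markers Cd3e was at 0 in 2 libraries, Cd3d and Cd8a each in 1 and Lep in 4. The part of these cells in the results below was not tested. In bulk tissue, fewer cells of a type and less RNA per cell cannot be told apart.

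The promoters printed here belong to 6 members whose RNA changed, and they are shown as examples of gene starts with and without the ETS motif, whose shares are given with the other motifs. Each is the stretch of RefSeq sequence (GRCm38.p6, the assembly of mm10) from 250 bases before to 50 after a gene start, 5′ to 3′ along the gene, with motif matches in capitals. The first 3 are of the SCAN type and hold the ETS motif, printed here as CCGGAAGT or in reverse as ACTTCCGG. They lie at chr5:145280201-145280500, chr13:21362570-21362869 and chr5:138084834-138085133, all on the plus strand.
Zscan25: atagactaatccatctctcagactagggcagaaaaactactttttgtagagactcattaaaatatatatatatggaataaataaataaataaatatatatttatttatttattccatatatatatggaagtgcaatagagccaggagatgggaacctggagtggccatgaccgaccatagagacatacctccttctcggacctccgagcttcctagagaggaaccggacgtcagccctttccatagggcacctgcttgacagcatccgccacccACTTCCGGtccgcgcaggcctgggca
Zscan12: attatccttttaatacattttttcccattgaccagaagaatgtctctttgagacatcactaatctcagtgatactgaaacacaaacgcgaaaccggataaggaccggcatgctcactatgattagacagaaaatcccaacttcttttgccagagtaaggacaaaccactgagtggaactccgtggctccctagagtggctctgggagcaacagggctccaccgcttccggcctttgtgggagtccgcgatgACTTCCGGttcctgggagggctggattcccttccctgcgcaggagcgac
Zkscan1: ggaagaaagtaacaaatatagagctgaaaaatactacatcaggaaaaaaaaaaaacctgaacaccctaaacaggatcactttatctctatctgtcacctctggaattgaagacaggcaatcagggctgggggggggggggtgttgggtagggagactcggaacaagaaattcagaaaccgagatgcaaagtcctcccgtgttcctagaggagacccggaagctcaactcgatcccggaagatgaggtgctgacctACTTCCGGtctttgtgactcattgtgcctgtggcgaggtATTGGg
The next 3 are of the POZ type. Zbtb41 (chr1:139422133-139422432, plus strand) holds matches to NRF1 and ETS, Zbtb5 (chr4:45012363-45012662, minus strand) to the CCAAT box and the GC box, and Zbtb42 (chr12:112678590-112678889, plus strand) to the GC box.
Zbtb41: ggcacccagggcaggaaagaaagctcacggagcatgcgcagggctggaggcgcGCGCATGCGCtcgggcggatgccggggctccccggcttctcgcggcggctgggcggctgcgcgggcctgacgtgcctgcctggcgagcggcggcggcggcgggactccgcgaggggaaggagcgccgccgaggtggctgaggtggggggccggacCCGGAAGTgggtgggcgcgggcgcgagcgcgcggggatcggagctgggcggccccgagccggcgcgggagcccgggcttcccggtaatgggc
Zbtb5: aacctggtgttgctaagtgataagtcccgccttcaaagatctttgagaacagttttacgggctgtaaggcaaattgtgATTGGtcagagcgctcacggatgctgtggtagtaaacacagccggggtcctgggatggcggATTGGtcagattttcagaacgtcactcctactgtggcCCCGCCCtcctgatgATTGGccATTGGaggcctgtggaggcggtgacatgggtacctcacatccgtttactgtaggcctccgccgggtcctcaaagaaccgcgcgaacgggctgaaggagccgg
Zbtb42: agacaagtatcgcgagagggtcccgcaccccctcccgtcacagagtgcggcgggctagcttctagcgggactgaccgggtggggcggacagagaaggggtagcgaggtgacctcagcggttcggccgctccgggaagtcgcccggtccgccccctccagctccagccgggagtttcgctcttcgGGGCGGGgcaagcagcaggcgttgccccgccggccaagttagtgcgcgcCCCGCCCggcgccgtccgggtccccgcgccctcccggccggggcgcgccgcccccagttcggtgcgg
The other SCAN type genes that changed, Zscan21 and Zkscan17, held no ETS match. The printed SCAN windows held 8 to 12 CpG pairs, and Zbtb5 held 17, Zbtb42 40 and Zbtb41 45. Other members that changed did not divide in this way, with 7 and 8 in the windows of Zbtb7b, 3 in Zbtb20, 14 in Zkscan17 and 15 in Zscan21.

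The RNA comparison asked how the transcripts of these factors differed between MS275 and vehicle. Members that changed were mostly lower with MS275, by modest amounts. Of 37 Zbtb genes tested, 11 fell, 2 rose and 24 did not pass; of 20 Zscan and Zkscan genes tested, 5 fell, 0 rose and 15 did not pass (edgeR's quasi-likelihood test, Benjamini-Hochberg adjusted p under 0.05 over all 16819 genes tested). With 1 library left out at a time, the number that fell ranged from 3 to 11 Zbtb genes and from 1 to 7 SCAN type genes, the lowest being without vehicle replicate 2 (for Zbtb genes also without vehicle replicate 1), and with the mean muscle level as a term 0 of either passed. Over all those genes 11% were called, 5.89% as lower and 5.1% as higher, against 29.7% lower and 5.41% higher among tested Zbtb genes and 25% lower among tested SCAN type genes. The median log2 fold change was -0.18 for each type and 0.002 over all genes. Of the tested members 50 of 57 had a negative log2 fold change, against 49.5% of all genes. The count of 0 SCAN type genes that rose was also 0 at an unadjusted p under 0.05, in DESeq2 and in limma voom. The difference between the types was not tested.

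**Figure D1:**
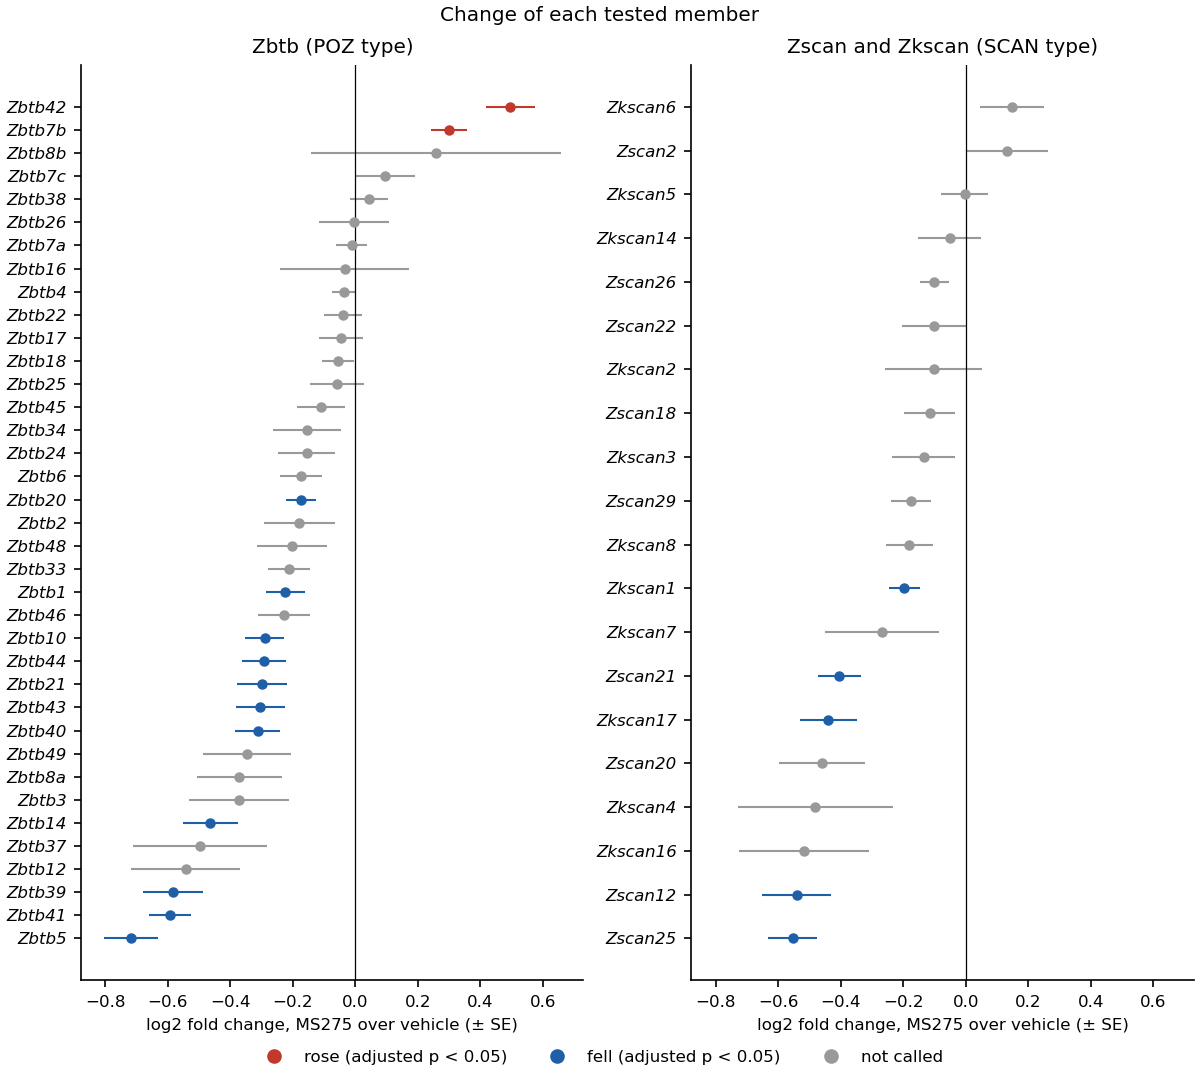
Log2 fold change (MS275 over vehicle, x axis) with its SE for each tested Zbtb gene (left) and each tested Zscan or Zkscan gene (right), sorted, with genes that passed in colour. Most points lie left of 0, from -0.72 for Zbtb5 to 0.50 for Zbtb42.

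The shift was present in each MS275 library. Relative to the vehicle mean, the median log2 ratio of Zbtb genes was -0.18, -0.16 and -0.27 in MS275 replicates 1, 2 and 3, and -0.01 to 0.03 in the vehicle libraries. The corresponding medians of Zscan and Zkscan genes were -0.17, -0.15 and -0.27 with MS275 and -0.03 to 0.03 in vehicle. Summed over 38 Zbtb genes, the level was 1056, 1035 and 1019 CPM in vehicle replicates 1, 2 and 3 and 962.5, 972.7 and 956.6 CPM in the MS275 replicates, without overlap. All 18 members that passed had no overlap between the groups. They were chosen by p on these same libraries, so this adds no separate support. Among all tested members 29 of 57 did not overlap, 27 of them lower with MS275, where 33.8% of all genes did not overlap and 17.9% were lower without overlap.

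Zbtb5, which is known to repress the cell cycle inhibitor gene Cdkn1a, had the lowest log2 fold change of the members. It stood at 10.8, 10.4 and 9.44 CPM in vehicle replicates 1, 2 and 3 and at 6.04, 6.39 and 6.20 CPM with MS275 (log2 fold change -0.72, SE 0.09, edgeR adjusted p = 0.00282). The highest MS275 library was well under the lowest vehicle library, and Zbtb5 fell by 39.2%. Zbtb41, a little studied member, read 36.5, 36.7 and 33.3 CPM in vehicle against 22.6, 25.3 and 22.6 CPM with MS275 (-0.59, SE 0.07, edgeR adjusted p = 0.00225). It had the smallest p of all members. Zbtb39 read 12.4, 10.3 and 11.7 CPM in vehicle against 8.21, 7.46 and 7.24 CPM (-0.58, SE 0.10, edgeR adjusted p = 0.00852). These 3 genes lie on chromosomes 4 (44991242 to 45012412), 1 (139422000 to 139453007) and 10 (127739530 to 127747349), and no other RefSeq gene overlaps them.

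Zbtb14 and Zbtb21 encode partners, since Zbtb21 protein is known to bind Zbtb14, a repressor of Myc and other GC-rich promoters. Zbtb14 was at 18.4, 17.3 and 15.6 CPM in vehicle against 11.3, 13.0 and 12.9 CPM with MS275 (log2 fold change -0.46, SE 0.09). Zbtb21 was at 12.6, 12.9 and 11.7 CPM in vehicle against 10.7, 9.55 and 9.99 CPM with MS275 (-0.30, SE 0.08). Both fell, Zbtb21 by less, with adjusted p of 0.013 and 0.0416 in edgeR. Of the 6 fits with 1 library left out, Zbtb14 passed in 4 and Zbtb21 in 1. Zbtb10, described as a repressor of Sp transcription factor genes, was at 24.2, 22.2 and 23.2 CPM in vehicle against 19.0, 18.6 and 19.2 CPM with MS275 (-0.29, SE 0.06). Its MS275 libraries lay close together, with an SD of 0.30 CPM around 19.0 CPM. Zbtb40 was at 13.3, 13.2 and 12.3 CPM in vehicle against 10.4, 10.2 and 10.8 CPM with MS275 (-0.31, SE 0.07). Of the same 6 fits, Zbtb10 passed in 3 and Zbtb40 in 2.

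Zbtb43 and Zbtb44 changed to a like extent. Zbtb43 read 15.0, 14.8 and 14.3 CPM in vehicle against 13.0, 11.2 and 11.5 CPM with MS275 (log2 fold change -0.31, SE 0.08, edgeR adjusted p = 0.0387). Zbtb44 read 21.2, 19.5 and 18.6 CPM in vehicle against 16.8, 15.9 and 15.6 CPM with MS275 (-0.29, SE 0.07, edgeR adjusted p = 0.032). Of the 6 fits with 1 library left out, Zbtb43 passed in 1 and Zbtb44 in 2. Zbtb20, known from hippocampal development and from nociceptors, fell by 11.4%, from 94.0, 93.5 and 90.2 CPM to 85.9, 82.7 and 77.2 CPM (-0.18, SE 0.05, edgeR adjusted p = 0.0472). Zbtb1, which lymphocyte development requires, passed most narrowly of all: 38.3 ± 2.48 CPM in vehicle against 32.8 ± 1.59 CPM with MS275 (SD, n = 3; edgeR adjusted p = 0.0498). Zbtb20 and Zbtb1 did not pass with RLE or upper quartile scaling, with limma voom, or with no filter beyond 10 reads. Each passed in 1 of the 6 fits with 1 library left out. Zbtb1 overlaps Zbtb25 on chromosome 12, and Zbtb20 overlaps 9 other genes, so reads there could be assigned to either. In all, 7 of the 18 members that passed overlap another RefSeq gene. The rest of these are Zbtb7b, Zbtb14, Zbtb40, Zscan25 and Zkscan17.

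The 2 Zbtb genes that rose have known roles outside neurons. Zbtb42, whose product is found in muscle, near the nerve endings, was at 7.46, 7.34 and 7.92 CPM in vehicle against 11.0, 10.5 and 10.5 CPM with MS275 (log2 fold change 0.50, SE 0.08, edgeR adjusted p = 0.00764). The summed muscle level of the MS275 libraries ran from 83.4 to 614 CPM. With the muscle level as a term Zbtb42 had a log2 fold change of 0.40 and did not pass (edgeR adjusted p = 0.193), nor did it without vehicle replicate 2. Zbtb7b (ThPOK), which directs T cells to the CD4 lineage, was at 26.9, 25.6 and 24.3 CPM in vehicle against 32.3, 31.6 and 30.6 CPM with MS275 (0.30, SE 0.06, edgeR adjusted p = 0.0145). Summed lymphocyte markers were 2.78 to 3.56 CPM in vehicle against 2.46 to 6.33 CPM with MS275. The largest part was Cd79a (means 1.60 and 1.55 CPM), and Cd4 was at 0.58 and 0.80 CPM. The means of Cd3e, Cd3d, Cd3g and Cd8a were 0.02 to 0.08 CPM in vehicle and 0.05 to 0.13 CPM with MS275, too low for the test. The sum is thus no measure of T cells. Zbtb7b did not pass without vehicle replicate 2, without vehicle replicate 3 or with the muscle term (edgeR adjusted p = 0.175). Zbtb7b overlaps the RefSeq gene Gm15417 on chromosome 3.

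**Figure D2:**
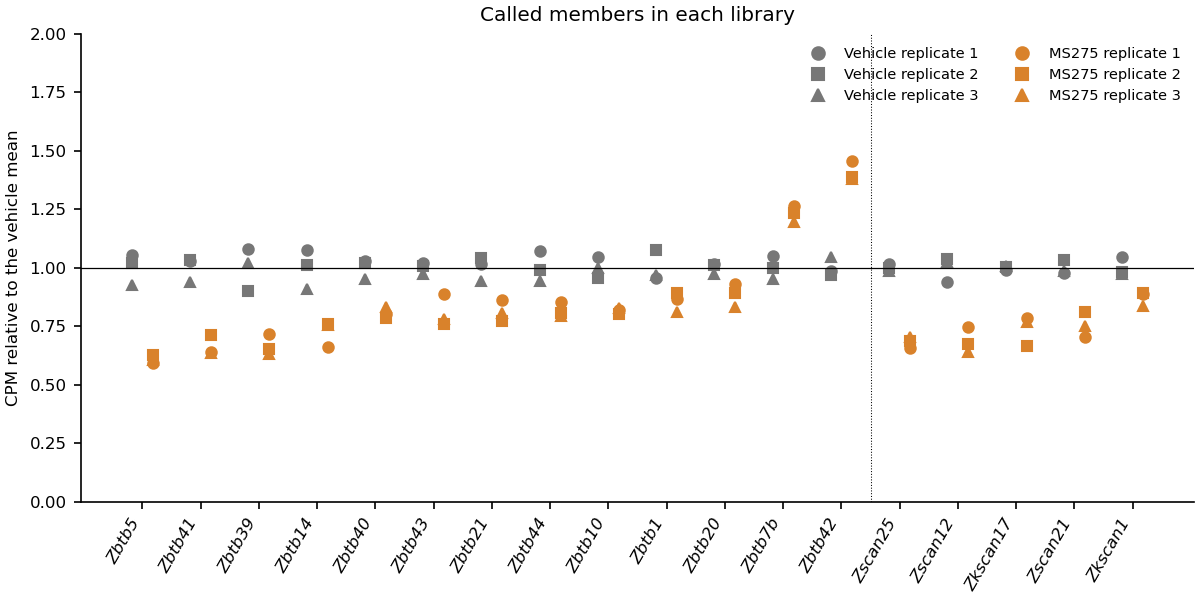
CPM of each library divided by the mean of the vehicle libraries (y axis) for the 18 members that passed, with Zbtb genes left and Zscan and Zkscan genes right of the dotted line; grey points are vehicle, orange points MS275, and the shapes are replicate numbers. In each gene the orange points lie wholly on 1 side of the grey ones, above them for Zbtb7b and Zbtb42 and under them for the other 16. The genes were chosen by p on these same libraries.

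Several of the best known Zbtb genes did not pass. Zbtb7a (LRF), a silencer of fetal globin genes, was at 149.6, 149.3 and 151.1 CPM in vehicle against 137.8, 154.1 and 154.3 CPM with MS275 (log2 fold change -0.01, SE 0.05). Zbtb4, which binds methylated CpG, was at 237.7, 227.4 and 226.1 CPM in vehicle against 223.9, 223.2 and 226.2 CPM with MS275 (-0.04, SE 0.04). The groups overlapped in both. Of the other methyl-CpG binders, Zbtb38 had a log2 fold change of 0.04 (SE 0.06), while Zbtb33 (Kaiso) was at 21.2, 23.2 and 21.9 CPM in vehicle against 19.5, 19.6 and 18 CPM with MS275, without overlap but at an edgeR adjusted p of 0.0698. Zbtb17 (Miz-1), the partner of Myc, had -0.05 (SE 0.07), and Zbtb18 (RP58), which cortical neurons need, -0.06 (SE 0.05).

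Zbtb16 (PLZF), the factor fused to a retinoic acid receptor in a leukaemia, varied most between MS275 libraries among Zbtb genes above 1 CPM. It was at 17.3, 13.7 and 13.5 CPM in vehicle against 20.3, 12.2 and 10.9 CPM with MS275 (log2 fold change -0.03, SE 0.21; -0.36 to 0.13 with 1 library left out). The highest value was in MS275 replicate 1, the library with most muscle, neutrophil and erythroid RNA. Zbtb8b, a gene of low count (183 reads in all), was likewise highest there, at 1.17 CPM against 0.35 to 0.66 CPM in the other libraries. Zbtb46, known from dendritic cells, was at 13.9, 12.8 and 13.8 CPM in vehicle against 11.3, 12.6 and 10.6 CPM with MS275 (edgeR adjusted p = 0.108). Summed dendritic cell markers were 24.1 to 26.5 CPM in vehicle and 25.7 to 28.8 CPM with MS275, mostly from Flt3 (means 23.6 and 24.8 CPM). In the same order the means were 0.15 and 0.18 CPM for Xcr1 and 0.27 and 0.29 CPM for Clec9a. They were 0.59 and 0.59 CPM for Cd209a and 0.66 and 1.14 CPM for Itgax. The sum therefore mostly follows 1 gene. The other Zbtb genes that did not pass had log2 fold changes from -0.54 (Zbtb12) to 0.09 (Zbtb7c).

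Among SCAN type genes, Zscan25 had the smallest p. It was at 10.5, 10.3 and 10.2 CPM in vehicle against 6.77, 7.10 and 7.30 CPM with MS275 and fell by 31.8% (log2 fold change -0.55, SE 0.08, edgeR adjusted p = 0.00488). Zscan12 was at 5.23, 5.78 and 5.70 CPM in vehicle against 4.16, 3.75 and 3.56 CPM with MS275 (-0.54, SE 0.11, edgeR adjusted p = 0.0179). Zscan21, first described in cerebellar granule cell precursors, was at 24.4, 25.8 and 24.6 CPM in vehicle against 17.6, 20.3 and 18.7 CPM with MS275 (-0.40, SE 0.07, edgeR adjusted p = 0.00984). In each of these 3 the groups did not overlap, which held for every member that passed. Of the 6 fits with 1 library left out, Zscan25 passed in 6, Zscan21 in 5 and Zscan12 in 2.

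The Zkscan genes that fell were Zkscan17 and Zkscan1. Zkscan17 (Nizp1), a repressor that binds the methyltransferase Nsd1, was at 9.08, 9.17 and 9.21 CPM in vehicle against 7.17, 6.10 and 7.01 CPM with MS275 (log2 fold change -0.44, SE 0.09, edgeR adjusted p = 0.0183). Zkscan1, a host gene of an abundant circular RNA, was at 50.5, 47.4 and 46.9 CPM in vehicle against 42.9, 43.0 and 40.3 CPM with MS275 (-0.20, SE 0.05, edgeR adjusted p = 0.0383). Of the 6 fits with 1 library left out, Zkscan17 passed in 3 and Zkscan1 in 2. Zkscan3, a repressor of autophagy genes, was at 14.3, 18.9 and 15.9 CPM in vehicle against 15.2, 14.3 and 15.3 CPM with MS275 and overlapped (-0.14, SE 0.10). Zscan26 was at 40.7, 41.7 and 40.5 CPM in vehicle against 37.8, 37.5 and 39.4 CPM with MS275, without overlap but with an edgeR adjusted p of 0.184. Zscan20 had a log2 fold change of -0.46 (SE 0.14) at an edgeR adjusted p of 0.0602. The other SCAN type genes that did not pass ranged from -0.52 (Zkscan16) to 0.15 (Zkscan6).

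Tested members had from 183 reads in all (Zbtb8b) to 64494 (Zbtb4). The members with fewest reads under the rule were Zbtb32 (48 reads) and Zscan30 (59 reads), which were too low for the test, and nearest outside the rule was Zscan10, an embryonic stem cell gene, with 2 reads. The files list 8 further symbols of the pattern at 0 in all 6 libraries. They are Zbtb9, Zscan5b and the 6 genes Zscan4a to Zscan4f, which are known from the early embryo and resemble one another. Taken as sampling alone, a count of 0 in all 6 libraries allows up to about 3 expected reads summed over the 6. That bound does not cover reads left uncounted, for instance between genes that resemble one another, which was not tested.

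The calls depended on the libraries used. Zbtb5, Zbtb41, Zbtb39 and Zscan25 passed whichever of the 6 libraries was left out. Of the 18 members that passed, the count that still passed was 7, 4 and 7 when vehicle replicate 1, 2 or 3 was left out. For the MS275 libraries in the same order it was 17, 15 and 10. All 18 kept their direction in each of these fits. With the mean log2 level of the 10 muscle genes as an added term, 0 of the 18 passed, while 36 of all genes rose and 16 fell. In that fit the medians were -0.21 for Zbtb and -0.19 for Zscan and Zkscan genes, and Zbtb5 and Zbtb41 had log2 fold changes of -0.60 and -0.46 (edgeR adjusted p = 0.0991 and 0.0751).

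**Figure D3:**
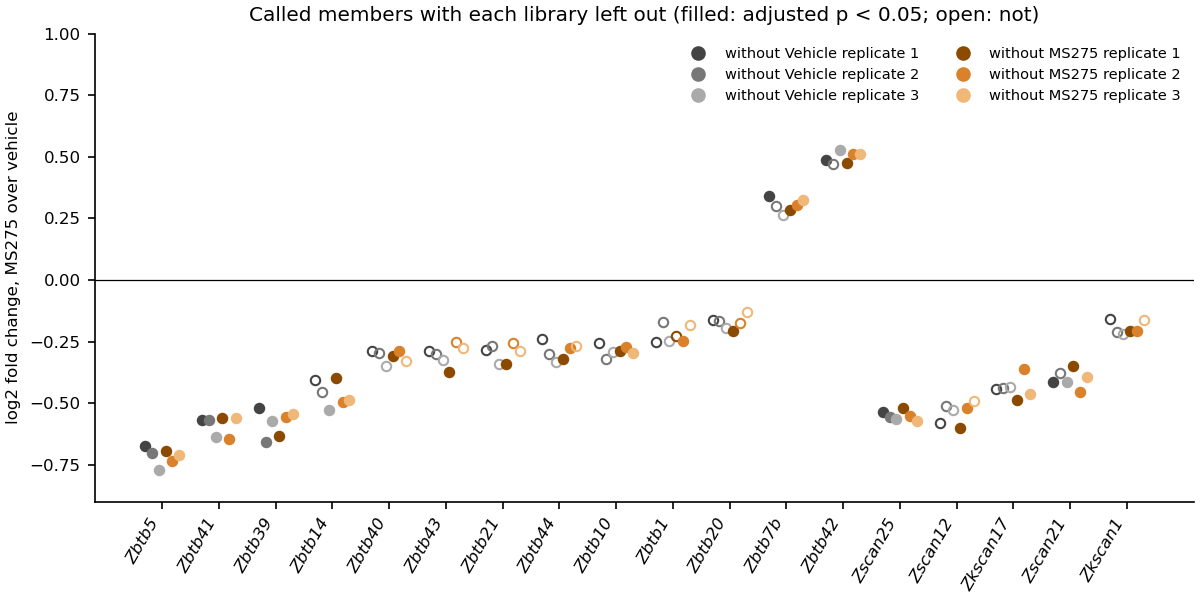
Log2 fold change (MS275 over vehicle, y axis) of the 18 members that passed, refitted with each of the 6 libraries left out in turn (colours); filled points passed at adjusted p under 0.05 and open points did not. No point crosses 0, and Zbtb5, Zbtb41, Zbtb39 and Zscan25 are filled throughout.

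Other gene groups were counted for comparison. Of 336 tested Zfp genes, zinc finger genes named by number, 84 (25%) fell and 8 (2.38%) rose, with a median log2 fold change of -0.22. The 84 became 24, 15 and 39 without vehicle replicate 1, 2 or 3, 47 without MS275 replicate 3 and 0 with the muscle term. Of 51 tested Klhl, Kbtbd and Btbd genes, which carry a POZ domain but no row of zinc fingers and mostly serve as adaptors of the Cul3 ubiquitin ligase, 9 (17.6%) fell and 3 (5.88%) rose, with a median of -0.09; the 9 ranged from 1 to 10 with 1 library left out and became 0 with the muscle term. No difference between these groups was tested.

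**Figure D4:**
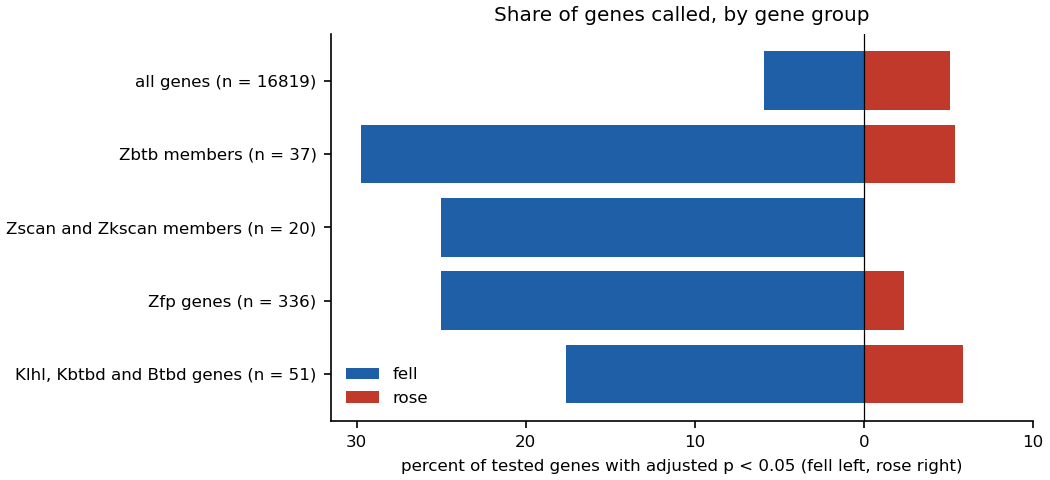
Percent of tested genes that fell (left of 0) and rose (right of 0) at adjusted p under 0.05 in all genes and in 4 gene groups, with the number tested. The Zbtb bar reaches 29.7% and the Zscan and Zkscan bar 25% on the lower side, beside 5.89% for all genes.

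POZ zinc finger genes that carry other symbols moved in both directions. Of 8 tested, 3 rose (37.5%) and 1 fell (12.5%), against 5.1% and 5.89% of all genes, with a median log2 fold change of -0.10. Those that rose were Bcl6b (1.11, SE 0.22), a gene of endothelial and memory T cells, Hic1 (0.54, SE 0.13), a tumour suppressor gene, and Bcl6 (0.23, SE 0.05), the germinal centre repressor. Mynn fell (-0.39, SE 0.08). The 8 endothelial markers, of which 4 rose, were higher in the same libraries. None of these 4 genes passed without vehicle replicate 1 or without vehicle replicate 2.

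Among SCAN genes under other symbols, of 16 tested, 6 fell and 0 rose (0 also at an unadjusted p under 0.05, in DESeq2 and in limma voom), with a median log2 fold change of -0.30. The share that fell was 37.5%, where 5.89% of all genes fell and 5.1% rose. The count that fell was 1 without vehicle replicate 1 or 2, 3 without vehicle replicate 3, 2 without MS275 replicate 3 and 1 with the mean muscle level as a term. Peg3, an imprinted gene, went from 193.7 ± 10.2 to 132.0 ± 2.7 CPM (SD, n = 3; -0.55, SE 0.05). The others that fell were Zfp202 (-0.68), Zfp369 (-0.39), Zfp263 (-0.38), Zfp287 (-0.37) and Zfp445 (-0.29), a factor of imprinting control. The 12 Zfp genes of this list are also among the Zfp genes above, so the counts share them.

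Genes listed as co-repressor partners of POZ and of KRAB proteins in general were counted in the same way. The KRAB list is not limited to genes whose products bind the domain itself. Of 16 POZ co-repressor and partner genes, 1 rose and 2 fell: Bcor, the BCL6 co-repressor (log2 fold change 0.45, SE 0.08), its relative Bcorl1 (-0.26, SE 0.07) and the scaffold Sin3a (-0.48, SE 0.06). Ncor1 (-0.10, SE 0.04) and Cul3 (-0.06, SE 0.04) did not pass. The shares were 6.25% higher and 12.5% lower, against 5.1% and 5.89% of all genes. Of 10 genes on the KRAB list, 9 had a negative log2 fold change, 3 fell and 0 rose. The count that rose was also 0 at an unadjusted p under 0.05, in DESeq2 and in limma voom. Those that fell were Trim28 (-0.25, SE 0.06), Setdb1 (-0.29, SE 0.07) and the silencing ATPase Morc3 (-0.32, SE 0.07). These 3 did not pass when any 1 of the vehicle libraries was left out. Of the 10, 30% fell and 90% had a negative log2 fold change, against 5.89% and 49.5% of all genes.

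Neighbouring members did not fall together throughout. On chromosome 13, Zscan12, Zkscan3, Zscan26, Zkscan4 and Zkscan8 lie between 21362820 and 21531114, a span of 168.3 kb, and of these 5 only Zscan12 passed; of 4 other genes tested there 0 passed. Zkscan1 and Zscan21, next to each other on chromosome 5 (138085050 to 138134265), both fell. Further along that chromosome (145194946 to 145292240) Zscan25 fell, while Zkscan5 and Zkscan14 had log2 fold changes of -0.003 and -0.05. On chromosome 2 Zbtb43 fell and its neighbour Zbtb34 did not pass (-0.16, SE 0.11).

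Open chromatin was described from 1 pooled ATAC list per treatment, of 177906 merged regions in vehicle and 161788 with MS275. Each list combined 3 libraries of its treatment, each from 1 mouse. Without values per library these lists allow no test. Where RefSeq gave no start for a gene, a region at either gene end was counted, so it may lie at the far end of the gene. Counted so, a region lay within 1000 bp of the gene start for 36 of 37 tested Zbtb genes in the vehicle list and 35 in the MS275 list. The same held for all 20 tested Zscan and Zkscan genes in both. Among all tested genes placed by a RefSeq start or by their ends the shares were 88.6% and 87.7%. Of the 18 members whose RNA changed, 17 had a region at the start in both lists, for Zbtb10 and Zbtb40 at either gene end. The exception was Zbtb20, with no region at the 1 RefSeq start used in either list. Zbtb46 had a region of 440 bp in the vehicle list only. Zbtb9, at 0 reads in all RNA libraries, had a region at its start in both lists. At the promoters printed above, the region over the Zbtb5 start was 1457 bp wide in vehicle and 1850 bp with MS275, that of Zbtb41 1228 and 1414 bp, and that of Zscan25 849 and 414 bp. Over the Zbtb42 window the vehicle list had a region of 582 bp and the MS275 list none, although a region of 615 bp lay within 1000 bp of that start.

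Promoter composition was described from RefSeq windows, which matched 33 Zbtb members (46 windows) and 15 SCAN type members (20 windows). The number of CpG pairs per window of 300 bases had a median of 24.5 for Zbtb (range 1 to 56) and 12.5 for Zscan and Zkscan (range 3 to 32), so the types overlapped widely and their difference was not tested. The median was 19 over the 15774 windows of tested genes. The ETS motif CCGGAAGT, searched on both strands, was found in 7 of 20 SCAN type windows (35%), in 6.52% of Zbtb windows, in 6.75% of the windows of tested genes and in 3.89% of all 32851 windows. It was in Zscan12, Zscan25, Zscan29, Zkscan1, Zkscan4 and Zkscan8, of which Zscan12, Zscan25 and Zkscan1 fell. Its matches there lay from 122 bases before to 31 after the start, and 1 Zscan25 site is counted in both of that gene's overlapping windows. Windows of 1 gene overlap in part, so they are not independent.

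The GC box GGGCGGG was in 47.8% of Zbtb windows, 30% of SCAN type windows and 43.1% of windows of tested genes, and the CCAAT box CCAAT in 28.3%, 25% and 37.2%. The NRF1 motif was in 8.70% of Zbtb windows, in 0 of 20 SCAN type windows and in 8.43% of windows of tested genes. The TATA box TATAAA was in 10.9%, 5% and 7.87%, the cAMP response element TGACGTCA in 2.17%, 10% and 2.76%, the YY1 motif ATGGCGGC in 6.52%, 10% and 3.97%, and the palindrome labelled ZBTB33-like in 0%, 5% and 0.843%, in the same order. These are matches of letters on either strand, not binding sites, and a GC box may overlap another motif.

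**Figure D5:**
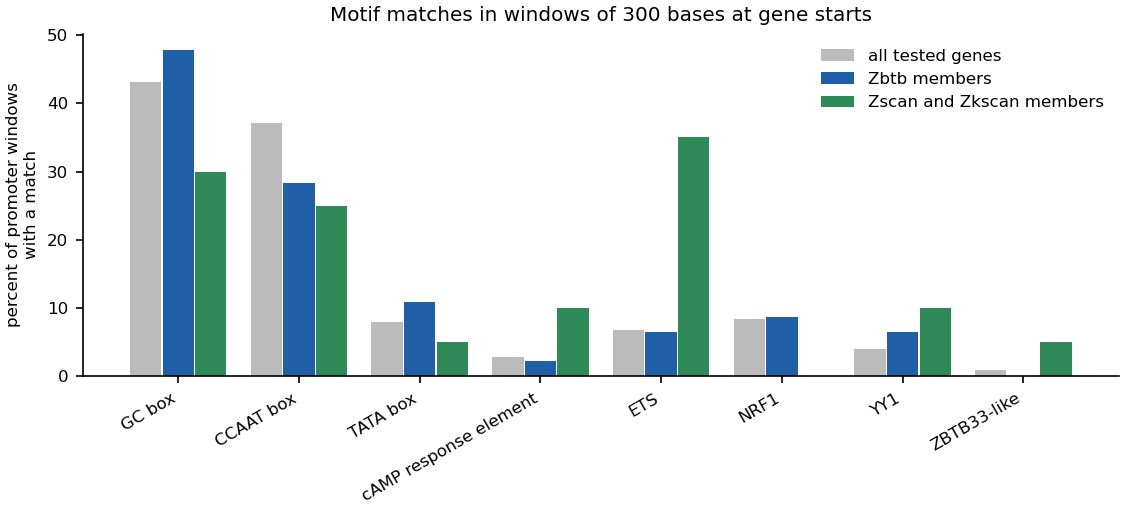
Percent of promoter windows of 300 bases (y axis) with at least 1 match to each of 8 motifs (x axis), for the windows of all tested genes, of Zbtb members and of Zscan and Zkscan members. ETS matches stand at 35% of Zscan and Zkscan windows and at 6.52% of Zbtb windows.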

How the data were processed

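The 6 RNA libraries and 1 pooled ATAC peak list per treatment entered. Per the file headers and values, the authors deposited raw counts of reads per gene symbol. The submitters' processing notes name mm10, STAR 2.7.0, edgeR 3.24.3 and limma 3.38.3. Per the labels' protocols, libraries were poly(A) selected and directional; which tool counted reads, and with which strand option, was not given in the sources used here, so reads of overlapping genes may be assigned to either. The 5 rows that name no gene (18.9% to 20.6% of reads) stayed out. From the deposited peak lists (replicates combined by the authors, caller not stated) came positions, the fold enrichment, a ratio, and -log10 values of p and q; overlapping entries were merged within a list.

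The counts went into edgeR 4.0.16 under R 4.3.3 (TMM, filterByExpr, quasi-likelihood test, treatment as the only term, 2-sided). CPM are counts scaled to the normalised library size, not adjusted for gene length, so levels were not compared between genes. The SE was taken from the fold change and its F statistic. On simulated data with 200 genes changed, the fit was checked only for calls and for direction, not for the size of the change. The simulation had no library richer in muscle RNA than the others, unlike the MS275 libraries here. Replicates are pools of different mice and were described as biological triplicates. The p-values set the difference between treatments against the spread between these pools, not between single mice. Same-numbered libraries did not deviate together (r = 0.02, 0.11 and -0.06). No pair of libraries agreed within sampling noise (chi-square per degree of freedom 7.20 to 53.2).

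Every member with adjusted p under 0.05 is named, with values per library for up to 12 of the Zbtb and all of the SCAN type, for the 2 members of highest mean CPM per type and for 8 well known members. The members and gene lists were chosen with earlier results of these data known. Gene starts came from RefSeq (GRCm38.p6) and all 59 members matched; where no start was given, either gene end was used. Proteins were not analysed here.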

Additional observations from a re-analysis of the deposited data

How the results depend on the processing

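The calls on members rest on 3 libraries a group and on libraries that differ in muscle RNA. With 1 library left out at a time, 127 to 1388 of all genes rose and 134 to 1375 fell; Zbtb 0 to 2 and 3 to 11; Zscan and Zkscan 0 and 1 to 7; Zfp 3 to 9 and 15 to 94; Klhl, Kbtbd and Btbd 0 to 4 and 1 to 10; POZ genes under other symbols 0 to 3 and 0 to 1; SCAN genes under other symbols 0 and 1 to 8; POZ partners 0 to 1 and 1 to 2; KRAB partners 0 and 0 to 4. With the muscle term 36 of all genes rose and 16 fell, 1 Zfp gene rose, 1 SCAN gene under another symbol fell, and the count was 0 in each direction for Zbtb, Zscan and Zkscan, Klhl, Kbtbd and Btbd, POZ under other symbols and both partner lists, as for Zfp genes that fell. That term shares variation with treatment, and the cause was not tested. At an adjusted p under 0.01 the counts risen and fallen were 165 and 185 (all genes), 1 and 3 (Zbtb), 0 and 2 (Zscan and Zkscan), 4 and 20 (Zfp), 0 and 1 (Klhl, Kbtbd and Btbd), 0 and 0 (POZ under other symbols), 0 and 1 (SCAN under other symbols), 0 and 1 (POZ partners) and 0 and 0 (KRAB partners). Under 0.1, 1525 of all genes rose and 1704 fell, 131 Zfp genes fell, 5 Klhl, Kbtbd and Btbd genes rose, 3 POZ genes and 10 SCAN genes under other symbols fell and 2 POZ partners rose. DESeq2 and limma voom each called 2 POZ genes under other symbols lower, and upper quartile scaling and no filter each called 1 POZ partner lower; the cause was not tested. With the replicate number as a block, 981 of all genes rose and 1107 fell, and all 18 member calls were kept; the numbers are not shown to pair libraries. The share of calls that fell was 49.8% to 55.0% over the other scalings and tools.

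The 18 members that passed kept their sign in every alternative. Members that did not pass changed sign as follows. With the muscle term the log2 fold change was 0.0626 for Zbtb18, -0.82 for Zbtb8b, 0.0229 for Zbtb22, 0.0764 for Zbtb7a, 0.15 for Zbtb26, -3.90e-05 for Zkscan6, 0.034 for Zkscan14 and 0.0757 for Zkscan5. Zbtb26 and Zkscan5 were at 0.000107 and 0.0011 in DESeq2, 0.000424 and 0.00145 with RLE and 0.0027 and 0.0032 with upper quartile scaling. With 1 library left out, the ranges were -0.109 to 0.0255 (Zbtb25), -0.0682 to 0.00415 (Zbtb17), -0.34 to 0.54 (Zbtb8b), -0.0739 to 0.0169 (Zbtb22), -0.0347 to 0.0432 (Zbtb7a), -0.36 to 0.13 (Zbtb16), -0.0572 to 0.0628 (Zbtb26), -0.113 to 0.042 (Zkscan14) and -0.0369 to 0.0473 (Zkscan5). Other peak windows and cutoffs left 34 to 37 Zbtb and 19 to 21 SCAN type members with a region at the start, or at either end where no start was given. The planned protein features were not run.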
